A study of Mus musculus with 72 samples.

Results

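Ribosome biogenesis genes were followed over the day in mouse liver under 4 feeding paradigms. The set held 46 genes, found by symbol in the GENCODE M21 annotation among the 51912 genes of the deposited count table. All 46 had a mean of at least 1 CPM (counts scaled to the library's total) over the libraries, as did 11669 genes in all, and all 46 were among the 12712 genes that passed the filter on low counts and were tested. The members fall into 5 roles: 6 genes of transcription by RNA polymerase I (Polr1a, Polr1b, Polr1c, Polr1e, Ubtf and Rrn3), 8 of the small nucleolar ribonucleoproteins (Nop56, Nop58, Fbl, Nolc1, Dkc1, Gar1, Nhp2 and Nop10), 5 abundant nucleolar proteins of several functions (Ncl, Npm1, Ddx21, Mybbp1a and Gnl3), 16 factors of small subunit assembly and 11 of large subunit assembly.

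Ribosomes are assembled in the nucleolus, where RNA polymerase I transcribes the ribosomal RNA precursor, guide RNAs in small nucleolar ribonucleoproteins direct its methylation and pseudouridylation, and assembly factors fold and cut it into the small and the large subunit. The process takes a large share of the energy of a growing cell, and it is under the control of nutrient signalling through mTOR and of transcription factors of the Myc and Max network. In liver, the making of ribosomes and the size of the organ are known to follow the daily cycle of feeding and fasting.

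The livers came from wild-type male C57BL/6J mice that were 43 to 49 days old at the start and were kept in 12 h of light and 12 h of darkness. The 4 paradigms were food restricted to the night (night-restricted), food at all times (ad libitum), arrhythmic feeding, and arrhythmic feeding in animals whose adaptation the labels call incomplete (incompletely adapted). Livers were collected at zeitgeber times (ZT, hours after lights on) 2, 6, 10, 14, 18 and 22, with 3 libraries at each time and 18 per paradigm, so 72 in all. The timing of the meals and the criterion of adaptation are not known from the labels. Nor do these tell whether each library is a different animal, and the p-values thus refer to the spread among libraries, which may be technical.

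The libraries held 4342026 to 12286021 counts, with paradigm medians between 6453747 and 8375853. Libraries differed along the GC content of the transcripts' 3′ ends. The 5 whose slope lay farthest from the median of the 72 (-0.01) are called the libraries of extreme GC slope: night-restricted replicate 1 at ZT2, ZT6, ZT18 and ZT22 (slope 0.33, 0.33, 0.25 and 0.38, in log2 per standard deviation of GC content) and incompletely adapted replicate 1 at ZT10 (slope -0.29). The slopes form no clear break there: the next in distance were ad libitum replicate 2 at ZT10 (0.23) and incompletely adapted replicate 1 at ZT14 (-0.25) and replicate 3 at ZT22 (0.22). Which 5 are left out is therefore a choice of number, and a covariate for the slope of all 72 libraries was fitted as well. Hepatocyte markers dominated, with a median summed level between 27710 and 33710 CPM in the 4 paradigms. Erythroid markers came next, with medians from 1719 to 2766 CPM. Those of Kupffer cells summed to 445.2 to 574.1 CPM, endothelial cells to 250.3 to 279.7, stellate cells to 183.8 to 216.4, and proliferating cells to 28.0 to 31.2. Neutrophil markers had medians from 3.92 to 5.06 CPM, with a highest value of 89.6 CPM under ad libitum feeding. T and NK cell markers summed to 1.18 to 1.46 CPM and none of them passed the filter. In bulk tissue, fewer cells of a type and less RNA per cell cannot be told apart.

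Under night-restricted feeding, 19 of the 46 members were rhythmic (41.3%, where 29.9% of all genes tested were called). Rhythm was tested with a cosine and sine of 24 h period per paradigm, fitted to all 72 libraries, with edgeR's quasi-likelihood test and Benjamini-Hochberg adjustment over all genes tested, at an adjusted p of 0.05. Every adjusted p given is of this kind. Nop58, Gnl3, Ncl, Npm1, Nop2, Nip7 and Rrs1 were high around the start of the dark phase, while Dkc1, Utp3 and Pes1 were high in the first hours of light and lowest at ZT14. Only 3 members were rhythmic under ad libitum feeding (6.52%, against 7.48% of all genes), and all 3 were among the 19. Under arrhythmic and incompletely adapted feeding 0 members were called, against 3.37% and 3.63% of all genes. At an unadjusted p under 0.05 there were 3 members under arrhythmic feeding (Polr1a, Nop16 and Gnl2) and 6 under incompletely adapted feeding, where 13.8% of all genes passed in each, and DESeq2 called 0 and 1. Under night-restricted and ad libitum feeding 25 and 12 members passed that limit, against 43.2% and 22.4% of all genes.

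By role, the night-restricted calls covered 1 of 6 genes of polymerase I transcription, 3 of 8 of the small nucleolar ribonucleoproteins, 3 of 5 multifunctional nucleolar genes, 7 of 16 small subunit factors and 5 of 11 large subunit factors. The fitted daily range (peak minus trough on the log2 scale) had a median over the 46 members of 0.66 with night-restricted and 0.43 with ad libitum feeding, and of 0.35 and 0.34 with arrhythmic and incompletely adapted feeding. Over all genes tested the medians were 0.71, 0.52, 0.43 and 0.42, each of them above the members' median. A fitted range cannot be negative, and it is above 0 even for a gene that does not cycle. Of the 11 members whose normalised CPM averaged under 10 over the 72 libraries 3 were called, and of the other 35 members 16.

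**Figure D1:**
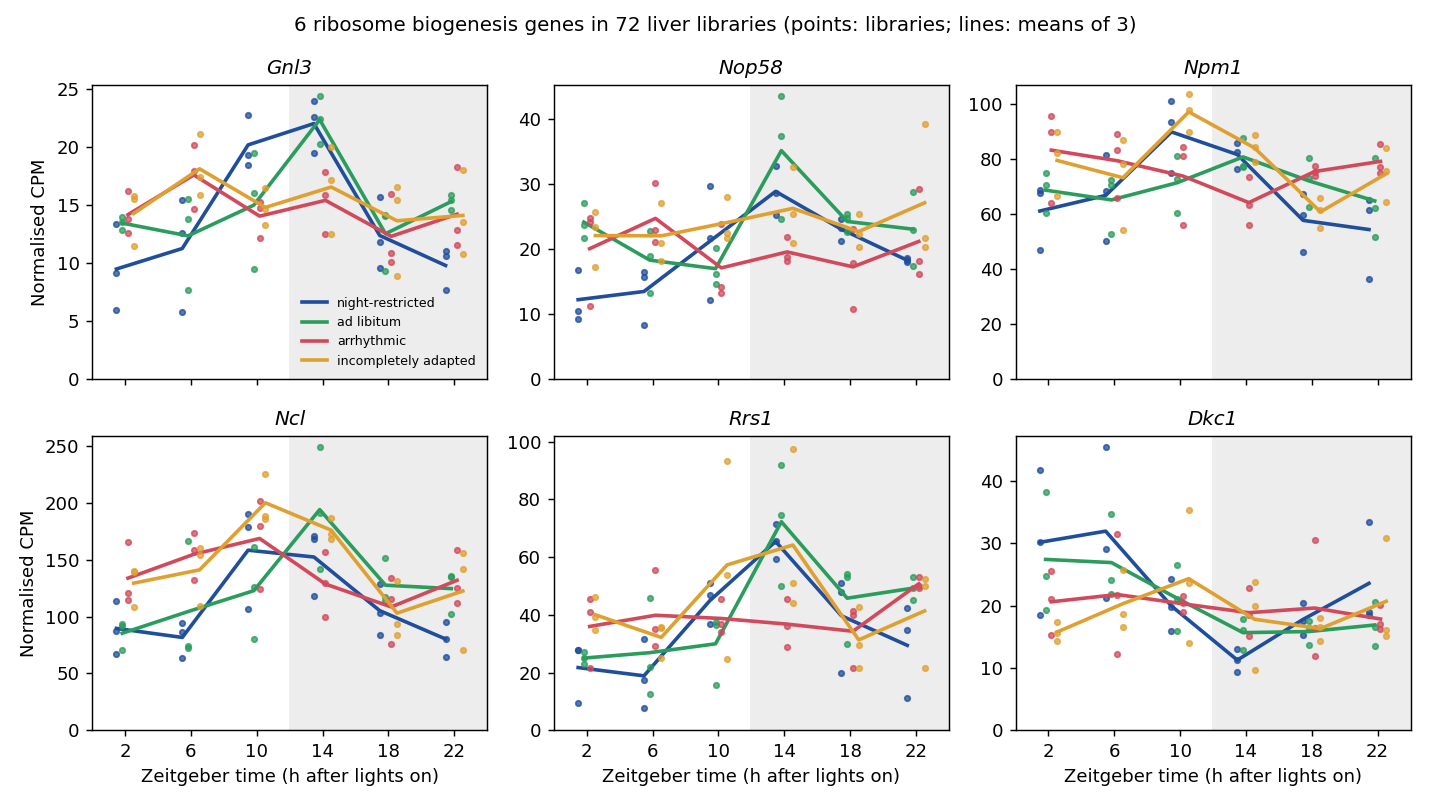
Normalised CPM (y axis) of Gnl3, Nop58, Npm1, Ncl, Rrs1 and Dkc1 at 6 zeitgeber times (x axis, hours after lights on). Points are libraries, lines join means of 3, colours are the 4 feeding paradigms and grey marks the dark phase. Gnl3, Nop58 and Rrs1 have their highest mean at ZT14 under night-restricted and ad libitum feeding, and Dkc1 has its lowest mean there.

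Among the multifunctional nucleolar genes, Gnl3 (nucleostemin, a GTPase of the nucleolus; GRCm38 chromosome 14, 31012433 to 31019152, minus strand) had the smallest adjusted p of the set. Its normalised CPM under night-restricted feeding was 5.94, 9.19 and 13.4 at ZT2, 5.80, 15.4 and 12.6 at ZT6, 22.8, 19.3 and 18.5 at ZT10, 22.6, 24 and 19.5 at ZT14, 11.9, 15.7 and 9.56 at ZT18, and 7.67, 11.1 and 10.7 at ZT22. Every library of ZT10 and ZT14 lay above every library of the other times. The fitted range was 1.31 ± 0.23 (SE) with a peak at 12.4 h (adjusted p = 4.56e-05). Under ad libitum feeding Gnl3 was also highest at ZT14 (24.4, 20.3 and 22.4), but its other times spread from 7.66 to 19.5 CPM and the rhythm did not pass the test (range 0.53 ± 0.23, adjusted p = 0.25). Under arrhythmic feeding the 6 means lay between 12.3 and 17.6 CPM.

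Ncl (nucleolin, which binds the ribosomal RNA precursor and nucleolar chromatin; chromosome 1, 86344719 to 86359400, minus strand) had 67.5, 87.5 and 113.7 CPM at ZT2, 63.8, 94.7 and 86.4 at ZT6, 178.4, 107.0 and 189.8 at ZT10, 170.6, 118.1 and 168.5 at ZT14, 83.4, 103.3 and 128.9 at ZT18, and 64.8, 80.7 and 95.4 at ZT22 under night-restricted feeding. The ZT10 and ZT14 libraries were highest apart from replicate 2, which overlapped with the ZT2 and ZT18 values. The range was 1.02 ± 0.24 with a peak at 12.5 h (adjusted p = 0.00212), and 0.87 without the 5 libraries (adjusted p = 0.0289). Npm1 (nucleophosmin, a chaperone of the nucleolus; chromosome 11, 33152287 to 33163206, minus strand) had 46.9, 67.4 and 68.7 CPM at ZT2, 50.2, 81.4 and 68.4 at ZT6, 75, 100.9 and 93.3 at ZT10, 76.1, 82.6 and 85.8 at ZT14, 46, 59.7 and 67.2 at ZT18, and 36.5, 61.3 and 65.1 at ZT22. Replicate 1, which at 4 of these times is a library of extreme GC slope, was the lowest of the 3 at each time. The range was 0.70 ± 0.16 with a peak at 10.6 h (adjusted p = 0.00244), and 0.52 without the 5 libraries of extreme GC slope (adjusted p = 0.0406). The helicase Ddx21 (range 0.36 ± 0.40) and Mybbp1a (0.16 ± 0.27) were not called.

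Among proteins of the small nucleolar ribonucleoproteins, Nop58 and Dkc1 peaked at opposite times of day. Nop58 (a core protein of the C/D particle, which guides ribose methylation; chromosome 1, 59684971 to 59719044, plus strand) had 9.30, 10.5 and 16.8 CPM at ZT2, 8.32, 15.7 and 16.4 at ZT6, 12.2, 29.7 and 21.6 at ZT10, 25.1, 32.7 and 28.6 at ZT14, 21.3, 24.6 and 23.2 at ZT18, and 18.2, 17.97 and 18.5 at ZT22 under night-restricted feeding. All libraries of ZT14, ZT18 and ZT22 lay above all of ZT2 and ZT6. The range was 1.19 ± 0.25 and the peak was at 15.0 h (adjusted p = 0.000932).

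Dkc1 (dyskerin, the pseudouridine synthase of the H/ACA particle; chromosome X, 75095854 to 75109777, plus strand) ran the other way. It had 41.8, 18.5 and 30.2 CPM at ZT2, 45.4, 21.3 and 29.1 at ZT6, 15.9, 19.7 and 24.2 at ZT10, 11.3, 13.1 and 9.41 at ZT14, 20.4, 15.3 and 17.6 at ZT18, and 33.3, 18.4 and 18.9 at ZT22. The ZT14 libraries were the lowest 3 of the 18. At ZT2, ZT6 and ZT22 the highest value came from replicate 1, a library of extreme GC slope at each of these times. The range was 1.33 ± 0.27 with a peak at 3.0 h (adjusted p = 0.000709), and 1.03 without the 5 libraries (adjusted p = 0.0201). Nolc1 (a chaperone of both classes of particle) had a range of 0.95 ± 0.29 with a peak at 14.9 h (adjusted p = 0.0304), and of 1.52 without the 5 libraries (adjusted p = 0.000133). The other core proteins did not pass the test: Nop56 and the methyltransferase Fbl of the C/D particle, and Gar1, Nhp2 and Nop10 of the H/ACA particle, with ranges from 0.30 for Fbl to 1.57 ± 0.61 for the lowly expressed Gar1 (mean 4.83 CPM under night-restricted feeding). With a covariate for the GC slope Nop56 was called (range 1.04 against 0.61, adjusted p = 0.00112), as was Nhp2 (adjusted p = 0.0253), but neither was without the 5 libraries (0.0708 and 0.960).

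For large subunit factors, Nip7 (a factor in maturation of the large subunit; chromosome 8, 107056877 to 107060931, plus strand) had 12.1, 14.3 and 13.2 CPM at ZT2, 10.8, 14.4 and 12.1 at ZT6, 14.3, 18.3 and 14.8 at ZT10, 21.0, 22.4 and 22.6 at ZT14, 17.4, 19.8 and 19.3 at ZT18, and 14.2, 18.8 and 19.98 at ZT22. The ZT14 libraries were the highest 3 of the 18 and did not overlap with those of any other time. The range was 0.77 ± 0.17 with a peak at 16.3 h (adjusted p = 0.00115). Nop2 (an RNA methyltransferase of the large subunit RNA; chromosome 6, 125131909 to 125144753, plus strand) had 10.5, 7.27 and 7.58 CPM at ZT2, 9.08, 7.31 and 8.44 at ZT6, 8.74, 14.6 and 9.87 at ZT10, 17.3, 16.1 and 16.2 at ZT14, 12.7, 9.49 and 11.4 at ZT18, and 11.3, 9.88 and 10.4 at ZT22. Here too the ZT14 libraries were the highest 3, with the range at 0.87 ± 0.20 and the peak at 14.9 h (adjusted p = 0.00211).

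Rrs1 (a factor that brings the 5S ribonucleoprotein into the large subunit; chromosome 1, 9545408 to 9547455, plus strand), named after its values were seen, had 9.50, 27.9 and 27.7 CPM at ZT2 and 65.4, 71.4 and 59.4 at ZT14. The ZT14 libraries again lay above all others, with 51.1 CPM as the highest value outside ZT14, and the lowest values at ZT2, ZT6, ZT18 and ZT22 were all from replicate 1. The range was 1.63 ± 0.37 (adjusted p = 0.00221), and 1.35 without the 5 libraries of extreme GC slope (adjusted p = 0.0158). Ebna1bp2 peaked at 16.6 h (range 1.01 ± 0.29, adjusted p = 0.0177), with a range of 0.58 when the GC slope was a covariate (adjusted p = 0.0474). Pes1, which forms the PeBoW complex with Bop1 and Wdr12, had its peak at 3.4 h (range 0.85 ± 0.20, adjusted p = 0.00352), and its partners were not called (Bop1 0.33 ± 0.31, Wdr12 0.38 ± 0.22). Its range was 0.78 without the 5 libraries (adjusted p = 0.00709) and 0.50 with the covariate for the GC slope (adjusted p = 0.0161), under which Wdr12 was called too (adjusted p = 0.0490). Its call was lost with time as a factor (0.0513) and in a fit of the 18 night-restricted libraries alone (0.0729). Rrp1, Nop16, Gnl2 and the helicase Ddx18 were not called, with ranges from 0.40 to 0.82.

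Of the small subunit factors, Heatr1 (a component of the small subunit processome needed for transcription and processing of the precursor; chromosome 13, 12395027 to 12440289, plus strand) had 44.1, 56.1 and 56.4 CPM at ZT2, 38.8, 52.7 and 53.3 at ZT6, 60.5, 78.5 and 58.7 at ZT10, 63.2, 51.1 and 54.0 at ZT14, 48.0, 34.3 and 37.1 at ZT18, and 28.5, 34.5 and 37.7 at ZT22. ZT10 was above every library of ZT2, ZT6, ZT18 and ZT22, and the range was 0.78 ± 0.18 with a peak at 9.4 h (adjusted p = 0.00251). Utp3 (another processome component; chromosome 5, 88554462 to 88556090, plus strand) had 107.6, 79.1 and 75.7 CPM at ZT2, 137.7, 74.8 and 100.8 at ZT6, 60.7, 86.0 and 79.3 at ZT10, 59.8, 58.0 and 61.7 at ZT14, 87.5, 49.3 and 53.7 at ZT18, and 112.7, 64.0 and 55.5 at ZT22. Replicate 1 was the highest of the 3 at ZT2, ZT6, ZT18 and ZT22, the times at which it is a library of extreme GC slope. The fitted range was 0.74 ± 0.19 with a peak at 4.2 h (adjusted p = 0.00689), 0.73 without the 5 libraries (adjusted p = 0.00883) and 0.46 with the GC slope of each library as a covariate (adjusted p = 0.0155). The Utp3 call was lost with time as a factor (adjusted p = 0.110) and in a fit of the 18 night-restricted libraries alone (0.0933).

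The other 5 small subunit calls peaked between 13.9 and 18.2 h: Tsr1 (range 0.77, adjusted p = 0.00751), Utp4 (0.58, 0.0209), Nob1, the nuclease that forms the end of the small subunit RNA (1.26, 0.0259), Wdr75 (1.77, 0.0398) and Ltv1 (0.98, 0.0435). Not called were the processome components Nop14, Rrp9, Utp15, Utp20, Wdr43, Bms1, Imp3 and Imp4 and the export factor Rrp12. Their ranges ran from 0.24 for Imp4 to 1.5 ± 0.56 for Utp20.

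Of the 19 calls, 12 were made in all 72 refits that each left out 1 library. Ebna1bp2 was lost without night-restricted replicate 1 at ZT6 (adjusted p = 0.0558), and Utp4 without the same library (0.0623) or replicate 2 at ZT18 (0.0586). Nob1 was lost without replicate 1 at ZT2 (0.0564), replicate 2 at ZT18 (0.0905) or replicate 3 at ZT6 (0.0756). Nolc1 was lost in 6 refits (up to 0.0906 without replicate 3 at ZT2), Wdr75 in 8 (up to 0.145 without replicate 2 at ZT18) and Ltv1 in 22 (up to 0.1003 without replicate 1 at ZT6). Wdr75, Nob1 and Ltv1 have low levels, with means of 3.79, 2.70 and 5.11 CPM under night-restricted feeding. The covariate for the GC slope ended all 3 of these calls and gave smaller ranges: 0.71 for Wdr75 (adjusted p = 0.171), 0.87 for Nob1 (0.0938) and 0.54 for Ltv1 (0.127). Without the 5 libraries Wdr75 and Nob1 were called (0.0296 and 0.0149), and Utp4 (0.0605) and Ltv1 (0.0511) were lost.

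Polr1c, a subunit shared by RNA polymerases I and III (chromosome 17, 46243920 to 46248054, minus strand), was the only called gene of polymerase I transcription. It had 54.8, 57.4 and 49.1 CPM at ZT2, 60, 51.7 and 51.5 at ZT6, 65.1, 62.0 and 58.9 at ZT10, 49.9, 37.5 and 36.6 at ZT14, 51.5, 35.2 and 28.0 at ZT18, and 42.0, 42.0 and 37.5 at ZT22. Levels were higher in the light than in the dark phase except in replicate 1 at ZT14 and ZT18. The range was 0.69 ± 0.20 with a peak at 6.8 h (adjusted p = 0.0210), and the call was lost without night-restricted replicate 3 at ZT18 (adjusted p = 0.0718). Rrn3, the initiation factor through which growth signals reach polymerase I, had mean levels from 26.7 to 36.9 CPM over the 6 times and was not called (range 0.43 ± 0.18, adjusted p = 0.146). The large subunits Polr1a and Polr1b, the subunit Polr1e and the architectural factor Ubtf were not called either. With the covariate for the GC slope Polr1a was called (range 0.84 against 0.57, adjusted p = 0.00345), as was Rrn3 (0.0387). Without the 5 libraries Polr1a was called (range 1.09, adjusted p = 0.00537) and Rrn3 was not (0.0679).

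The fitted peaks of the 19 fell in 3 windows: 4 between ZT2 and ZT8 (Polr1c, Dkc1, Utp3 and Pes1), 5 between ZT8 and ZT14 (Ncl, Npm1, Gnl3, Heatr1 and Tsr1), and 10 between ZT14 and ZT20. Members called with a peak between ZT6 and ZT18 numbered 15 of 46, where 13.8% of all genes tested were called with such a peak. Under ad libitum feeding there were 2 such members (3.78% of all genes), and under arrhythmic and incompletely adapted feeding 0 (2.14% and 1.67%). The 27 members not rhythmic in any paradigm were Polr1a, Polr1b, Polr1e, Ubtf, Rrn3, Nop56, Fbl, Gar1, Nhp2, Nop10, Ddx21, Mybbp1a, Nop14, Rrp9, Rrp12, Utp15, Utp20, Wdr43, Bms1, Imp3, Imp4, Nop16, Bop1, Wdr12, Rrp1, Gnl2 and Ddx18. The count of 19 became 23 without the 5 libraries of extreme GC slope, 17 of them among the 19, with Polr1a, Rrp12, Wdr43, Imp3, Nop16 and Rrp1 added. In a fit with a covariate for the GC slope it was 26, of which 16 were among the 19, and the same 6 were added along with Rrn3, Nop56, Nhp2 and Wdr12. With time as a factor of 6 levels it was 10, all among the 19, against 13.7% of all genes, and Polr1c, Nolc1, Utp3, Utp4, Wdr75, Nob1, Ltv1, Pes1 and Ebna1bp2 were lost. Of these 9, all but Polr1c, Nob1 and Ltv1 were also lost in a fit of the 18 night-restricted libraries alone, which called 13. Beside the counts of 23, 26 and 13 no share of all genes is given, so these changes are not shown to be particular to the members.

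The promoters of the members were searched for short motifs. RefSeq windows of 300 bases (250 before to 50 after the start, build GRCm38.p6) were matched by symbol for 40 of the 46 members. Those shown are Nop2 and Pes1, which peaked at 14.9 and 3.4 h and both hold the motif CACGTG (the E-box bound by Myc and Max and by the clock factors, which reads the same on both strands), and Gnl3 and Dkc1, which peaked at 12.4 and 3.0 h and hold none. They were the members of smallest p for rhythm under night-restricted feeding among those with and without the motif. Phase was not used in the choice. Each promoter is written 5′ to 3′ on the gene's strand, from 250 bases before the start, with the motif in capitals. They lie at chr6:125131633-125131912 (plus strand), chr11:3963725-3964004 (plus strand), chr14:31019102-31019381 (minus strand) and chrX:75095604-75095883 (plus strand).
Nop2: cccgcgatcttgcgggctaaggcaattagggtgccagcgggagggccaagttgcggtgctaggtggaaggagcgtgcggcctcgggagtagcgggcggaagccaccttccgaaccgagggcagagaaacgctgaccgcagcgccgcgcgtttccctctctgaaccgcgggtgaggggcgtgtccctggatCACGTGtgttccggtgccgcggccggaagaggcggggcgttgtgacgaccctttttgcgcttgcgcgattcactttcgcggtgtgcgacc
Pes1: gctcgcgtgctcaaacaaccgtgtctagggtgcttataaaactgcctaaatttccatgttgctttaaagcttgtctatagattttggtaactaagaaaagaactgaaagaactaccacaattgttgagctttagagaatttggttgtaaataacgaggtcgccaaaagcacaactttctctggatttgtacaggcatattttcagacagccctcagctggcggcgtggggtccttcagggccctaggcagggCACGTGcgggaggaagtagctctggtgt
Gnl3: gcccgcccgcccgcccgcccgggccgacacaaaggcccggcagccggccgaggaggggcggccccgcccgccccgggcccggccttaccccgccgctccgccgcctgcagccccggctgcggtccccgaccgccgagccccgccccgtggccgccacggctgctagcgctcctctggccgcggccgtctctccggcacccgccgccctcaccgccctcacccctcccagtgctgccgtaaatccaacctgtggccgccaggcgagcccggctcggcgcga
Dkc1: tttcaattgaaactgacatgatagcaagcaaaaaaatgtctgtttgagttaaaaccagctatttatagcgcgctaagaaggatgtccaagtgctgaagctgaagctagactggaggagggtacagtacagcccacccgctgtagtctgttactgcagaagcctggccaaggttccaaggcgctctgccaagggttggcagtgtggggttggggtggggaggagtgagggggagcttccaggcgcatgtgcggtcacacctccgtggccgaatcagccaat
Starts are those of RefSeq. In Nop2 the motif begins 60 bases before the start, and in Pes1 at base 3 of the transcript.

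CACGTG was in the windows of 10 of the 40 members (25%), against 11.9% of 9289 tested genes with a window and 7.15% of all 32851 windows. The 10 were Imp4, Ltv1, Mybbp1a, Nop2, Pes1, Rrn3, Tsr1, Utp20, Utp4 and Wdr43. It was held by 5 of the 17 members with a window that were rhythmic under night-restricted feeding and by 5 of the other 23. The other motifs were searched on both strands. CCGGAAG (an Ets site) was in 37.5% of the members' windows, 20.3% of those of tested genes and 8.86% of all windows. It was in 10 of the 17 rhythmic members and 5 of the other 23. Neither this split nor that of CACGTG was tested, and no such split is given for all genes tested. Which members were called rhythmic also changed with the fit. CCAAT was in 37.5%, 42.8% and 37.4%, CGCATGC in 7.50%, 7.25% and 3.58%, and TCGCGA in 12.5%, 5.72% and 2.50%. A match describes these letters only and does not show that a factor binds there.

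Under ad libitum feeding the 3 rhythmic members were Ncl, Rrs1 and Dkc1, with the same order of phases as under night-restricted feeding. Ncl had 93.9, 70.3 and 91.8 CPM at ZT2 and 191.2, 141.7 and 249.5 at ZT14, with a range of 0.92 ± 0.24 and a peak at 14.8 h (adjusted p = 0.0210). Rrs1 had 22.9, 27.0 and 25.1 CPM at ZT2 and 74.6, 50.1 and 91.9 at ZT14, with a range of 1.40 ± 0.37 and a peak at 16.6 h (adjusted p = 0.0321). For both genes the ZT14 libraries lay above all those of ZT2. Dkc1 had 38.2, 19.4 and 24.7 CPM at ZT2 and 17.9, 16.1 and 12.9 at ZT14, with a range of 0.93 ± 0.27 and a peak at 4.8 h (adjusted p = 0.0464). Each of the 3 calls rests on single libraries, all of ad libitum feeding. Ncl was lost without replicate 3 at ZT14 (adjusted p = 0.142), replicate 1 at ZT6 (0.0523) or ZT14 (0.0690), or replicate 2 at ZT2 (0.0679) or ZT6 (0.0511). Rrs1 was lost without replicate 1 at ZT2 (0.0616), ZT6 (0.1075) or ZT14 (0.0790), replicate 2 at ZT2 (0.0511) or ZT6 (0.0701), or replicate 3 at ZT2 (0.0541) or ZT14 (0.101). Dkc1 was lost in 14 of the 72 refits that each left out 1 library, all of them ad libitum, with the highest adjusted p without replicate 1 at ZT6 (0.153). With a covariate for the GC slope Dkc1 was lost (0.0553) and Nolc1 was called (range 0.97, adjusted p = 0.00520), so that 3 members were called again. Ncl was lost in a fit of the 18 ad libitum libraries alone (0.0828), and all 3 were lost with time as a factor, where Tsr1 was the only member called.

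Under arrhythmic feeding the members nearest to the threshold were Nop16, a factor of large subunit assembly (range 0.62, adjusted p = 0.134), and Polr1a, the largest subunit of polymerase I (0.69, adjusted p = 0.282). Under incompletely adapted feeding they were Rrp9, a protein of the U3 particle (0.82 ± 0.23, adjusted p = 0.0546), Nop16 (0.64, adjusted p = 0.103) and Ncl (0.76 ± 0.24, adjusted p = 0.117). Ncl there had its highest mean at ZT10 (225.8, 186.2 and 188.2 CPM), as did Npm1 (103.4, 89.8 and 97.8), in each case with 1 library just below the highest of another time. With a covariate for the GC slope, Nop16 was called under arrhythmic feeding (adjusted p = 0.0490) and Polr1a (0.0227) and Rrp9 (0.0152) under incompletely adapted feeding. When 1 library at a time was left out, 1 member was called under incompletely adapted feeding in 38 of the 72 refits.

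The level of the set as a whole was read from the median log2 deviation of the 46 members from their means over the 72 libraries. At ZT14 it averaged 0.25 ± 0.11 (SD, n = 3) in night-restricted and 0.29 ± 0.13 in ad libitum libraries, compared with 0.04 ± 0.06 in arrhythmic and 0.13 ± 0.09 in incompletely adapted ones. At the other 5 times it lay between -0.12 and 0.05 under night-restricted and between 0.00 and 0.07 under ad libitum feeding. Under arrhythmic feeding it lay between -0.06 and 0.01 at these times, and under incompletely adapted feeding between -0.10 and 0.10. The mean was thus highest at ZT14 in each paradigm. Arrhythmic and incompletely adapted libraries of ZT14 overlapped with those of other times. The ad libitum libraries of ZT14 (0.19, 0.25 and 0.43) were above all 15 others of that paradigm, whereas 1 of the night-restricted libraries of ZT14 (0.13) overlapped with those of ZT10 and ZT18. The median over all genes tested stayed between -0.01 and 0.04 at every time and paradigm. Across the 72 libraries the members' median and the GC slope had a Pearson r of 0.08 and a Spearman rho of 0.15. Within paradigms r was -0.06, -0.35, 0.38 and 0.34 (night-restricted, ad libitum, arrhythmic, incompletely adapted, n = 18 each). These values are a description, and a median can hide members that follow the slope in opposite directions. Under night-restricted feeding the mean slope was 0.16 at ZT2, 0.15 at ZT6 and -0.03 at ZT14. Slope and time of day thus cannot be fully told apart there.

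**Figure D2:**
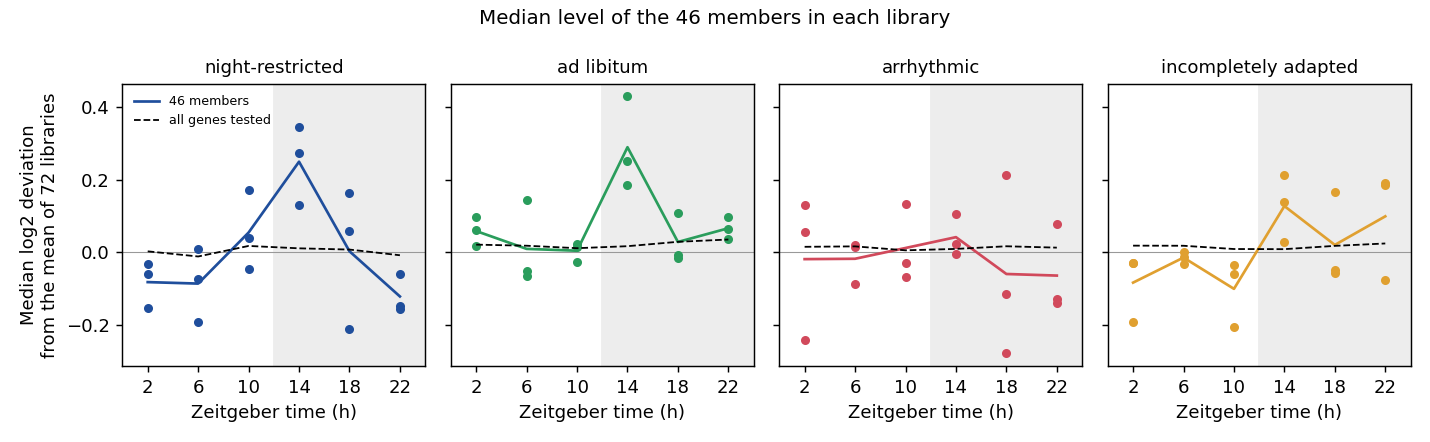
Median log2 deviation of the 46 members from their 72-library means (y axis) by zeitgeber time (x axis) in the 4 paradigms. Points are libraries, the coloured line joins means of 3, the dashed line is the same for all genes tested and grey marks the dark phase. The members' median is highest at ZT14 under night-restricted (0.25) and ad libitum feeding (0.29).

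Counted gene by gene, 19 of the 46 members (41.3%) had their highest mean at ZT14 under night-restricted feeding, where 18.2% of all genes did. Under ad libitum feeding 28 did (60.9% against 25.8%), under arrhythmic feeding 16 (34.8% against 23.7%) and under incompletely adapted feeding 11 (23.9% against 14.4%). These counts describe where the highest of 6 means fell and carry no test. Under ad libitum feeding most members with a mean highest at ZT14 did not pass the test for rhythm. Members did not move as 1 block: over the 1035 pairs, the median correlation of their levels across 18 libraries was 0.07 for night-restricted and for ad libitum feeding, 0.13 for arrhythmic and 0.08 for incompletely adapted feeding, as a description of libraries that share depth and composition.

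**Figure D3:**
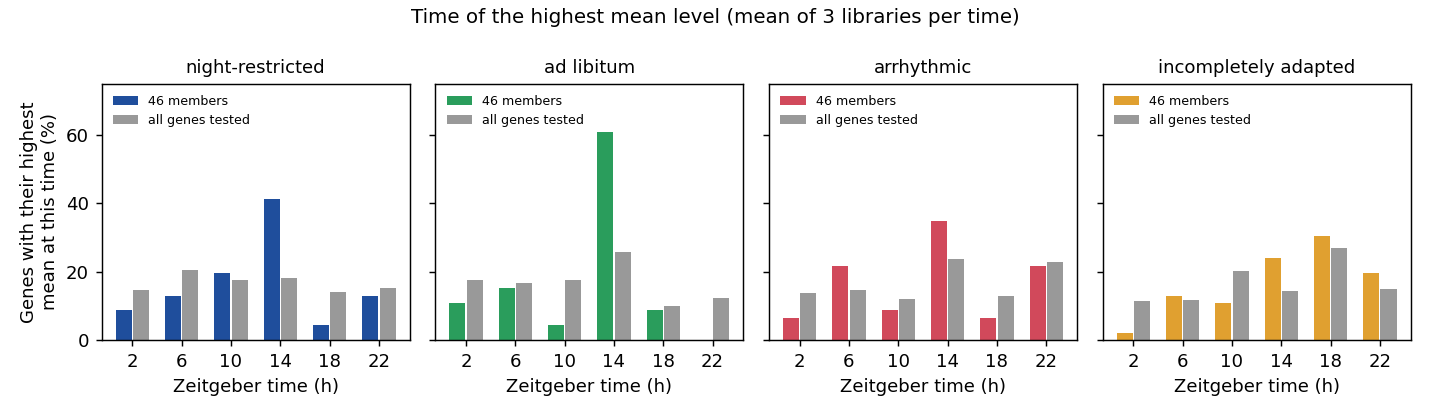
Share of genes (y axis, %) whose highest mean of 3 libraries fell at each zeitgeber time (x axis), for the 46 members (coloured bars) and all genes tested (grey bars) in the 4 paradigms. The members' share at ZT14 is 41.3% under night-restricted and 60.9% under ad libitum feeding.

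The course of the day differed between arrhythmic and night-restricted feeding for 3 members, Nop58, Npm1 and Gnl3 (6.52%, where 3.89% of all genes were called), each with the smaller range under arrhythmic feeding. The test asks whether cosine and sine terms are equal in both paradigms, and so reads size and phase together. At an unadjusted p under 0.05 there were 15 members, where 25.9% of all genes passed. The range was smaller under arrhythmic feeding for 37 of the 46 members, with a median difference of -0.25, and for 9222 of the 12712 genes tested, with a median difference of -0.25 too.

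At ZT14, Nop58 had 25.1, 32.7 and 28.6 CPM under night-restricted and 18.1, 21.8 and 18.7 under arrhythmic feeding. At ZT2 it had 9.30, 10.5 and 16.8 against 24.1, 24.7 and 11.3. The arrhythmic libraries were all lower at ZT14, and overlapped at ZT2 through replicate 3. Its range was 0.33 under arrhythmic feeding against 1.19, a difference of -0.87 ± 0.35 (adjusted p = 0.0194). Gnl3 had 14.7, 15.3 and 12.2 CPM at ZT10 and 12.5, 17.9 and 15.9 at ZT14 under arrhythmic feeding, all below the night-restricted libraries of those times, and 18.3, 12.9 and 11.5 at ZT22, all above them. Its range was 0.31 against 1.31, a difference of -1.0 ± 0.33 (adjusted p = 0.0301). Npm1 had 73.2, 55.8 and 63.1 CPM at ZT14 under arrhythmic feeding, all below the 76.1, 82.6 and 85.8 of night-restricted feeding, and 85.3, 76.8 and 74.9 at ZT22, all above the 36.5, 61.3 and 65.1 there. Its range was 0.31 against 0.70, a difference of -0.40 ± 0.23 (adjusted p = 0.0290).

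These 3 calls depend on single libraries. Without night-restricted replicate 1 at ZT2, one of the libraries of extreme GC slope, 0 members were called (adjusted p of 0.0503 for Nop58, 0.0634 for Npm1 and 0.0779 for Gnl3), and 0 were called without all 5 such libraries. Npm1 was also lost without arrhythmic replicate 2 at ZT10 (0.0624) or ZT14 (0.0693), night-restricted replicate 1 at ZT22 (0.0538) or night-restricted replicate 2 at ZT10 (0.0551). Gnl3 was also lost without arrhythmic replicate 1 at ZT2 (0.0511) or ZT14 (0.0541), or night-restricted replicate 1 (0.0529) or 2 (0.0635) at ZT14. With the GC slope as a covariate Npm1 alone was called (adjusted p = 0.00756, against 0.0605 for Nop58 and 0.0795 for Gnl3). Over the 72 refits and the 11 other alternatives the difference lay between -0.99 and -0.69 for Nop58, between -0.48 and -0.21 for Npm1 and between -1.18 and -0.69 for Gnl3, so the range was the smaller one under arrhythmic feeding in all of them.

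**Figure D4:**
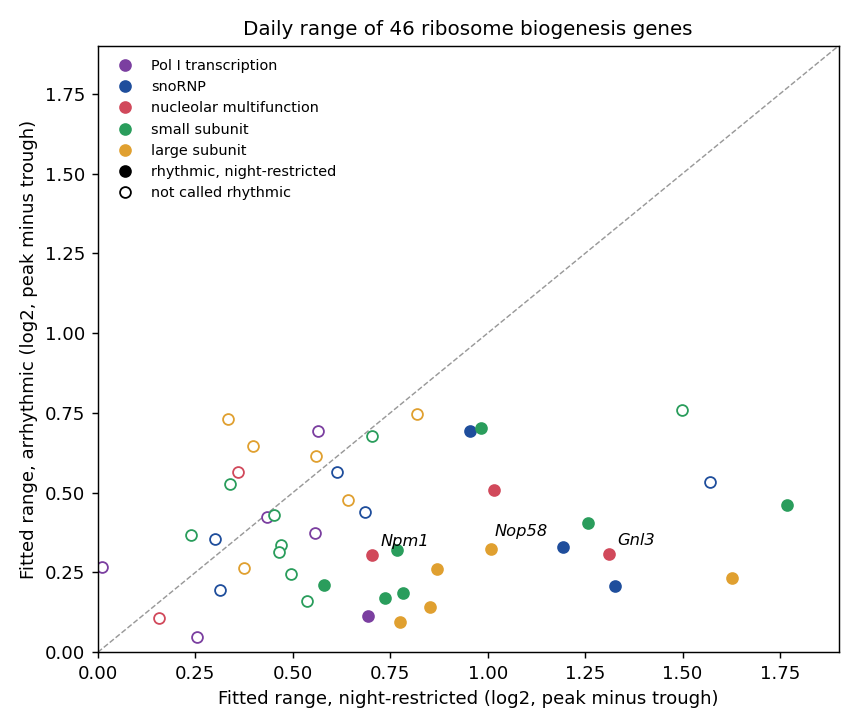
Fitted daily range (log2, peak minus trough) of the 46 members under night-restricted feeding (x axis) and arrhythmic feeding (y axis), coloured by role. Filled points are rhythmic under night-restricted feeding, the dashed line marks equal ranges and the 3 members with a called difference are named. Below the line lie 37 of the 46 members.

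In the other comparisons 0 members differed in their daily course by edgeR's quasi-likelihood test. For arrhythmic against ad libitum feeding, 0.0236% of all genes were called, 6 members had an unadjusted p under 0.05 (9.05% of all genes) and DESeq2 called 0. For night-restricted against ad libitum feeding, 0% of all genes were called, 3 members had an unadjusted p under 0.05 (8.72% of all genes) and DESeq2 called 0, so the smaller number of calls under ad libitum feeding is not shown to be a difference between these paradigms. For incompletely adapted against arrhythmic feeding, 0% of all genes were called, and 0 members had an unadjusted p under 0.05 (2.44% of all genes) or were called by DESeq2. For incompletely adapted against night-restricted feeding, 0.614% were called (0.566% with the smaller and 0.0472% with the larger range under incompletely adapted feeding), 11 members had an unadjusted p under 0.05 (14.6% of all genes) and DESeq2 called 0. The comparisons share paradigms, so their results are not independent. Dkc1, with a range of 0.21 under arrhythmic feeding, and Rrs1, with 0.23, had adjusted p of 0.0961 and 0.0715 for the difference from night-restricted feeding.

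Averaged over the day, Nop10 (a small core protein of the H/ACA particle; chromosome 2, 112261926 to 112263269, plus strand) was lower under arrhythmic feeding. It was the only member called against night-restricted feeding, where 6.92% of all genes were called (1.76% higher and 5.16% lower under arrhythmic feeding). It was also the only one called against ad libitum feeding, where 2.10% were (1.44% lower). Its 18 libraries ran from 132.2 to 198.2 CPM with a median of 168.7 under arrhythmic feeding, from 165.8 to 264.8 with a median of 201.1 under night-restricted, and from 136.6 to 253.5 with a median of 208.2 under ad libitum feeding. The groups overlapped over the whole day, but the arrhythmic mean was lower than the night-restricted mean at 5 of 6 times, and at 3 times all arrhythmic libraries were below all night-restricted ones. Nop10 fell by 0.29 ± 0.07 on the log2 scale against night-restricted (adjusted p = 0.00523) and by 0.30 ± 0.07 against ad libitum feeding (adjusted p = 0.0052). Both differences remained called when any 1 of the 72 libraries was left out, with adjusted p up to 0.0118 and 0.0127.

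Nop14, a processome component, was the only member called between night-restricted and ad libitum feeding, where 1.62% of all genes were (0.724% higher and 0.897% lower under night-restricted feeding). It ran from 9.89 to 18.4 CPM with a median of 13.3 under night-restricted feeding and from 12.8 to 22.2 with a median of 17.1 under ad libitum feeding, and fell by 0.34 ± 0.09 under night-restricted feeding (adjusted p = 0.0368). The night-restricted mean was lower at 5 of 6 times, with no overlap of libraries at 3. The call was lost without the 5 libraries of extreme GC slope (adjusted p = 0.192) and in 11 of 72 refits that each left out 1 library. These were night-restricted replicate 1 at ZT2 (0.0754), ZT6 (0.0785), ZT14 (0.0680), ZT18 (0.0607) or ZT22 (0.0665), and ad libitum replicate 1 at ZT2 (0.0753), ZT10 (0.0634) or ZT14 (0.0643), replicate 2 at ZT2 (0.0563) or ZT14 (0.0506) and replicate 3 at ZT14 (0.0567). Between incompletely adapted and arrhythmic feeding 0 members differed in mean level, where 0% of all genes were called, with 2 at an unadjusted p under 0.05 (5.03% of all genes) and 0 by DESeq2.

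Between incompletely adapted and night-restricted feeding 7 members differed (15.2%, where 18% of all genes were called), 4 higher (6.85% of all genes) and 3 lower (11.2%). At an unadjusted p under 0.05, 36.3% of all genes differed. Ncl ran from 70.3 to 225.8 CPM with a median of 147.9 under incompletely adapted feeding and from 63.8 to 189.8 with a median of 99.3 under night-restricted feeding (difference 0.41 ± 0.12, adjusted p = 0.0145). Nop58 ran from 17.1 to 39.2 with a median of 22.4, against 8.32 to 32.7 with a median of 18.4 (0.36 ± 0.12, adjusted p = 0.0373). Ddx18, a helicase of large subunit assembly with low counts, had medians of 4.99 and 3.53 (0.63 ± 0.22, adjusted p = 0.0348), and Ltv1 medians of 5.87 and 4.74 (0.43 ± 0.16, adjusted p = 0.0453).

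The lower members were Nop10 (median 165.9 against 201.1, difference -0.24 ± 0.07, adjusted p = 0.0113), Imp3, a protein of the U3 particle (133.9 against 162.8, -0.31 ± 0.09, adjusted p = 0.0173), and Pes1 (11.8 against 12.8, -0.33 ± 0.10, adjusted p = 0.0223). For each of the 7 the libraries of both paradigms overlapped over the whole day. The highest Imp3 and Pes1 values under night-restricted feeding (304.3 and 30 CPM) came from replicate 1 at ZT6, a library of extreme GC slope. With the GC slope as a covariate none of the 7 was called (Nop10 had the smallest adjusted p among them, 0.0951), and without the 5 libraries of extreme GC slope 0 members were called. Leaving out 1 library at a time, Nop10 and Ncl were called in all 72 refits (adjusted p up to 0.0242 and 0.0340). Imp3 was lost without night-restricted replicate 1 at ZT6 (0.0511) or ZT22 (0.0530), and Pes1 without the same replicate at ZT6 (0.0626), ZT18 (0.0566) or ZT22 (0.0592). Ddx18 was lost in 7 refits, Nop58 in 9 and Ltv1 in 14, with the highest adjusted p without incompletely adapted replicate 2 at ZT22 for Ddx18 (0.0874) and Nop58 (0.1003) and without incompletely adapted replicate 1 at ZT14 for Ltv1 (0.107).

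**Figure D5:**
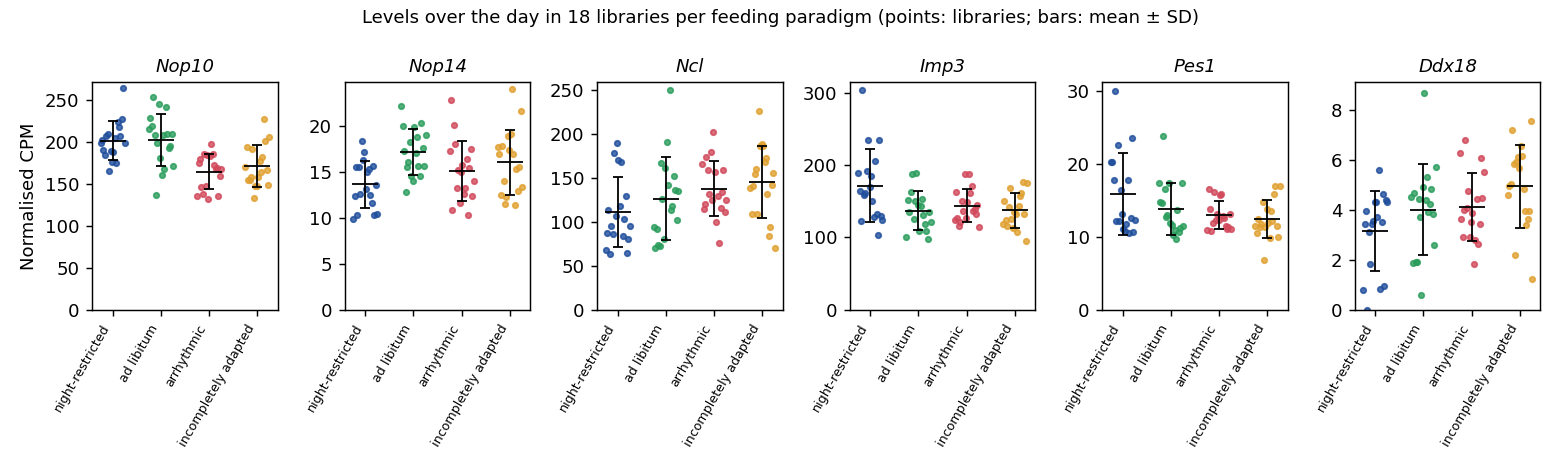
Normalised CPM (y axis) of Nop10, Nop14, Ncl, Imp3, Pes1 and Ddx18 in the 18 libraries of each feeding paradigm (x axis). Points are libraries and bars are mean ± SD. Nop10 lies lower under arrhythmic (mean 164.8) than under night-restricted (201.9) and ad libitum feeding (202.5).

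Reads from a gene and its antisense partner cannot be told apart here, because the sources do not state whether counting used the strand. Exons of 16 members overlap those of a gene on the opposite strand, and 10 of these partners were tested. Heatr1 overlaps Lgals8 (112.2 CPM under night-restricted feeding, range 0.80 with a peak at 11.9 h, adjusted p = 0.00813), so the Heatr1 rhythm is uncertain in this respect. Nop56 overlaps Idh3b (142.4 CPM, range 1.05 with a peak at 13.5 h, adjusted p = 0.00305), so the Nop56 call with the GC slope as a covariate is uncertain too. Gnl3 overlaps Pbrm1 (35.8 CPM, range 1.0 with a peak at 14.8 h, adjusted p = 0.168), Dkc1 overlaps Mpp1 (12.8 CPM, 0.40, peak 15.2 h, adjusted p = 0.211), and Tsr1 overlaps Srr (312.1 CPM, 0.43, adjusted p = 0.192). The partner of Pes1 was not tested. Nop58, Ncl, Gnl3, Dkc1 and Tsr1 also host genes of small nucleolar RNAs in their bodies, as do Nop56 and Wdr43.

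Other genes of the pathway were counted from a list of 120, of which 115 were tested (Myc, Dimt1, Riok2, Senp3 and Exosc6 were not). Under night-restricted feeding 30 of the 115 were rhythmic (26.1%, against 29.9% of all genes), under ad libitum feeding 3 (2.61% against 7.48%), and under arrhythmic and incompletely adapted feeding 0 (against 3.37% and 3.63%), with 11 and 10 at an unadjusted p under 0.05 (9.57% and 8.70%, against 13.8% of all genes in each) and 0 and 1 by DESeq2. By group the night-restricted calls were 5 of 8 growth regulators, 2 of 11 other polymerase I factors, 3 of 9 other snoRNP factors, 6 of 32 other small subunit factors, 11 of 43 other large subunit factors and 3 of 12 exosome genes. Among the growth regulators, Mtor, the kinase of nutrient signalling, had a range of 1.34 ± 0.20 with a peak at 10.5 h (adjusted p = 2.06e-06), and Max, the partner of Myc, 1.48 ± 0.20 with a peak at 13.9 h (adjusted p = 7.05e-08). Eif4ebp1, a translation inhibitor under mTOR (0.82 ± 0.16, peak 8.3 h, adjusted p = 0.000428), Maf1, the repressor of RNA polymerase III (0.85 ± 0.20, peak 4.7 h, 0.00314), and Rheb, the activator of mTOR (0.92 ± 0.29, peak 14.7 h, 0.0338), were rhythmic too. Mycn, Rptor and Rps6kb1 were not called.

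Between arrhythmic and night-restricted feeding 6 of the 115 differed in their daily course (5.22%, against 3.89% of all genes), all with the smaller range under arrhythmic feeding, as had 461 of the 495 genes called among all: Max (difference -1.29 ± 0.28, adjusted p = 0.00921), Rcl1 (-1.20 ± 0.26, 0.00935), Ddx54 (-1.13 ± 0.35, 0.0268), Mtor (-0.82 ± 0.28, 0.0278), Pelp1 and Rsl24d1. Rcl1, from the other small subunit factors, had the smallest adjusted p for rhythm of the listed genes, with a range of 1.68 ± 0.19 and a peak at 5.3 h under night-restricted feeding (adjusted p = 7.33e-10) and 1.10 ± 0.19 under ad libitum feeding (adjusted p = 4.62e-05).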

How the data were processed

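Liver RNA of 72 libraries was sequenced as 3′ end tags (Lexogen QuantSeq, from 2 µg of TRIzol-extracted RNA), per the labels. The authors deposited raw counts per gene. Alignment with STAR 2.4.2a and the builds GRCm38.p5 and mm10 are named in the submitters' processing notes; the counting tool, strand and annotation were not stated there. The deposited TPM table was not used. Gene symbols came from GENCODE M21, and the 193 genes without one held 0.00309% of counts.

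The counts were fitted with edgeR 4.0.16 (R 4.3.3; filterByExpr over the 24 groups, TMM scaling, robust quasi-likelihood) in 1 model of all 72 libraries, with a mean, cosine and sine of 24 h per paradigm. Rhythm, rhythm differences and differences in day mean were F-tested, with Benjamini-Hochberg adjustment over 12712 genes at 0.05. Standard errors of ranges came from the delta method. The GC slope of a library is the slope of its log2 CPM deviations on the GC content of the last 300 bases of each gene's longest transcript. Refits that left out 1 library kept the gene set and dispersion trend of the full model. The fit was also run on simulated counts, drawn independently for each library and without a GC slope. That run therefore cannot speak to dependence among libraries or to the GC slope in these data. Alternatives included DESeq2 1.42.0.

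The members and lists were chosen with earlier results of these data known. Named genes were the 2 members per role with the smallest p for night-restricted rhythm, members with a called rhythm difference, the 6 of smallest p per mean-level comparison, and members rhythmic in no paradigm. Others with values were named after their values were seen.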

Additional observations from a re-analysis of the deposited data

Results flagged for a closer look

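For 3 members the daily course differed between arrhythmic and night-restricted feeding by a test of the difference itself, edgeR's quasi-likelihood test with Benjamini-Hochberg adjustment. The fitted range was smaller under arrhythmic feeding by -0.87 ± 0.35 on the log2 scale for Nop58 (adjusted p = 0.0194), by -0.40 ± 0.23 for Npm1 (adjusted p = 0.0290) and by -1.0 ± 0.33 for Gnl3 (adjusted p = 0.0301). Each call is lost without night-restricted replicate 1 at ZT2 (adjusted p of 0.0503, 0.0634 and 0.0779).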

How the results depend on the processing

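Besides leaving out each of the 72 libraries in turn, 11 alternatives were run. The range and mean-level differences of the named members kept their sign in all of them, though several calls were lost. Counts of members and fitted ranges cannot change sign, so this does not speak to them. Rhythmic members under night-restricted feeding numbered 19, and 10 with time as a factor. Under ad libitum feeding they numbered 3, 1 without a filter on low counts, 1 with time as a factor and 5 without the 5 libraries of extreme GC slope. Under arrhythmic feeding 0 became 1 with the GC slope in the model and 1 with the replicate block and the GC slope. Under incompletely adapted feeding 0 became 1 with DESeq2-type size factors, 1 with DESeq2, 2 with the GC slope, 1 without the 5 libraries and 3 with the replicate block and the GC slope. For the rhythm difference of arrhythmic against night-restricted feeding, 3 became 5 with DESeq2, 1 without a filter, 0 with time as a factor, 1 with the GC slope, 0 without the 5 libraries and 1 with the replicate block and the GC slope. For incompletely adapted against night-restricted feeding, 0 became 1 with the replicate block and the GC slope. For mean levels, arrhythmic against night-restricted feeding gave 1, but 3 with the GC slope, 2 with the replicate block and 3 with both. Arrhythmic against ad libitum feeding gave 1, but 3 with the GC slope and 3 with the replicate block and the GC slope. Night-restricted against ad libitum feeding gave 1, but 2 with DESeq2-type size factors, 2 with DESeq2, 0 without a filter, 2 with the GC slope, 0 without the 5 libraries and 2 with the replicate block and the GC slope. Incompletely adapted against night-restricted feeding gave 7, but 11 with DESeq2, 2 without a filter, 1 with the GC slope, 0 without the 5 libraries, 1 with the replicate block and the GC slope and 3 in a fit of only the 36 libraries of both paradigms. The shares of all genes called under these alternatives are not given here, so no change in a count is shown to be particular to the members. The cause was not tested.

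Leaving out 1 library at a time, the counts lay between 15 and 23 for night-restricted, 0 and 5 for ad libitum, 0 and 0 for arrhythmic and 0 and 1 for incompletely adapted rhythm. The incompletely adapted count was 1 in 38 of the 72 refits. They lay between 0 and 7 for the rhythm difference of arrhythmic against night-restricted feeding and 0 and 1 for incompletely adapted against night-restricted feeding. For mean levels they lay between 1 and 3 (arrhythmic against night-restricted), 1 and 2 (arrhythmic against ad libitum), 0 and 2 (night-restricted against ad libitum) and 2 and 16 (incompletely adapted against night-restricted). The mean-level count for night-restricted against ad libitum feeding differed from the 1 of the full fit in 47 of the 72 refits. Within a paradigm, libraries of the same replicate number resembled each other more (mean correlation of deviations 0.22, 70.6% of 180 pairs over 0.1) than those of other numbers (-0.11, 26.1% of 360 pairs). Between paradigms they did not (-0.03 for the same number, 0.02 for other numbers), so the numbers were not taken to pair samples across paradigms. Within a paradigm the lowest correlation for the same number was -0.43. Whether libraries of the same number within a paradigm depend on each other was not tested, and the main fit treated them as independent. With the replicate block alone the night-restricted count was 19. That block was shared by the paradigms, so this count does not decide the question within a paradigm.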
